A study of Mus musculus with 12 samples.

Results

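Foxo1, Foxo3, Foxo4, Foxp1, Foxp3 and Foxj1 encode forkhead transcription factors, and their transcripts were followed in B-cell progenitors that were given back EBF1 or given PAX5. The members were chosen by symbol: every probe set that the platform annotation assigns to 1 of these 6 genes was taken, whatever its level or change. This gave 6 of the 18193 genes with a probe set of their own and 20 of the 45037 probe sets on the array. Foxo1 had 4 of them, Foxo3 had 3, Foxo4 had 2, Foxp1 had 8, and Foxp3 and Foxj1 had 1 each. The remaining 1, 1444226_at, is annotated to both Foxo3 and Gm38485, so it was kept apart and the counts below are over the other 19.

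The cells were Ebf1-/- pre-pro-B cells of strain C57BL/6, the progenitor stage at which B lymphopoiesis stalls without EBF1, and every group carries this deletion. They were grown on OP9 cells, a mouse stromal line, in 4% serum with 10 ng/ml each of SCF and Flt3L and 5 ng/ml of IL-7. The 4 groups of 3 one-colour Affymetrix arrays, labelled in 2 sets, were cells with the Mig-EBF1 retrovirus (set 1), control cells with the empty MigR1 retrovirus of set 1, cells with the Mig-PAX5 retrovirus (set 2), and MigR1 control cells of set 2. All viruses also encode GFP, and GFP-positive cells were sorted on day 2. Both factors were thus supplied by a virus, and all cells still lacked their own EBF1. Whether the cells' own Pax5 gene added to the PAX5 supplied was not tested. Animal ages and the origin of the replicates are not given in the labels, so the p-values rest on the spread among these samples alone, and that spread may be technical. The question for these genes is which of them differ in level 2 days after each factor is supplied, each against the controls of its own set.

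Across the sets, control arrays with the same number were closer to each other than replicates are, with a robust SD of the log2 difference of 0.039 to 0.094, against 0.281 to 0.374 for controls of unequal number. They were counted as 3 control samples. PAX5 arrays 2 and 3 (0.077, against 0.211 to 0.289 for the other pairs within a group) entered as a single PAX5 sample, so that group had 2. Both comparisons therefore share the same 3 control samples. The number of arrays limits the precision. Pax5 read 1849, 891 and 932 in PAX5 arrays, against 12.8, 8.97 and 7.98 in their controls (log2 change 5.67, limma adjusted p = 4.9e-05). Ebf1 read 1886 to 2477 in EBF1 arrays, against 2027 to 2173 in their controls, and since the position of this probe set relative to the deletion and the viral insert is not known here, it checks nothing about the labels. The summed intensity of 15 pre-pro-B cell markers, Ptprc, Flt3 and Kit among them, was 29873 to 31431 in EBF1 arrays, against 28592 to 38188 in set 1 controls, and 33792 to 37214 in PAX5 arrays, against 28377 to 37810 in set 2 controls. Their median intensity was 1184, 1802 and 1709 in EBF1 arrays, below 2834, 1823 and 2362 in set 1 controls. In PAX5 arrays it was 1179, 1178 and 1168, below 2830, 1822 and 2416 in set 2 controls. Their log2 changes ran from -1.91 to 2.73 in EBF1 cells and from -1.63 to 0.65 in PAX5 cells. By limma 0 of the 15 were called in either comparison, against 0.148% and 0.693% of all genes. An unadjusted p under 0.05 was found for 6 and 2 of the 15, against 11.3% and 9.06% of all genes. For the EBF1 minus PAX5 difference 1 of the 15 was called, higher in EBF1 relative to PAX5 cells, against 1.42% of all genes. There 5 had an unadjusted p under 0.05, against 16.5% of all genes. Markers of OP9 stroma (19 genes) summed to 3443, 1465 and 14194 in EBF1 arrays 1, 2 and 3, against 1129 to 2819 in set 1 controls, so EBF1 array 3 stands apart, and results that rest on it are also given without it.

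FOXO proteins activate genes of cell-cycle arrest, survival and metabolism while they are in the nucleus. When growth factor or antigen receptor signalling turns on PI3-kinase and AKT, FOXO proteins are phosphorylated, held by 14-3-3 proteins and exported. In early B cells FOXO1 is known for its part in expression of the interleukin-7 receptor and the recombinase genes Rag1 and Rag2, and EBF1 and FOXO1 are known to act on each other's genes. FOXP1 is also needed for early B-cell development, FOXP3 defines regulatory T cells, and FOXJ1 drives the genes of motile cilia. Transcript levels do not show where a FOXO protein is in the cell or whether it is phosphorylated.

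The upstream sequences of Foxo1 and Foxo3 are shown first, because Foxo1 is the member that passed the test and Foxo3 is the other FOXO gene that the promoter table holds. The Foxo1 gene lies at chr3:52268337-52350109 and the Foxo3 gene at chr10:42181845-42276695 (GRCm38.p6). The RefSeq promoter table, on the same build, gives the 250 bases before the start of Foxo1 at chr3:52268087-52268336 on the plus strand and those before the start of Foxo3 at chr10:42276696-42276945 on the minus strand. Both are printed 5′ to 3′, with capitals for a match to the EBF1 palindrome.

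Foxo1: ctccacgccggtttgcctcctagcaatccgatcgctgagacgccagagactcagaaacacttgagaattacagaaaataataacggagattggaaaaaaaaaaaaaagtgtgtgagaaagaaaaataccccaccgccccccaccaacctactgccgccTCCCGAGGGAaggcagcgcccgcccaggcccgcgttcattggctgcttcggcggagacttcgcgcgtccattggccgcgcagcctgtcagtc

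Foxo3: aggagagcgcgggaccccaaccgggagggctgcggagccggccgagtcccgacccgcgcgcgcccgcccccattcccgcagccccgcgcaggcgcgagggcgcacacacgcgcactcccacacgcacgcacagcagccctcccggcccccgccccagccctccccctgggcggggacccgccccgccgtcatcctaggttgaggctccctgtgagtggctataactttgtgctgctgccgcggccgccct

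A script searched both strands of such windows for 4 motifs: the EBF1 palindrome, which is TCCC and GGGA parted by any 2 bases, the FOXO core GTAAACA, the E-box CANNTG bound by E2A proteins, and the CCAAT box CCAAT. The Foxo1 window held 1 palindrome, TCCCGAGGGA, whose first base lies 92 bases before the start. It also held 1 E-box, CACTTG, and 3 CCAAT boxes, none of which overlaps the palindrome. The Foxo3 window held none of the 4. Over the 32851 windows of the table the palindrome was in 0.78%, the FOXO core in 3.17%, an E-box in 66.22% and a CCAAT box in 33.85%. The 3 Foxp1 windows and the 2 Foxp3 windows held neither the palindrome nor the FOXO core. Foxo4 and Foxj1 are named here without a sequence. A match is a string of letters and not a measured binding site, and its absence says only that these letters are not in this window.

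Foxo1 was higher in all 3 EBF1 arrays than in any of their controls by 3 of its 4 probe sets. Intensities are as deposited, on a linear scale, and no level of a probe set is compared with that of another. The brightest, 1416983_s_at, read 1104, 841 and 343 in EBF1 arrays 1, 2 and 3, against 102, 71.5 and 58.1 in set 1 controls. The groups do not overlap, and the lowest EBF1 array, number 3, was also the array with the highest stromal sum. The means were 763 ± 387 in EBF1 cells and 77.3 ± 22.8 in control cells (SD, n = 3 each). On the log2 scale of intensity plus 16, the scale of every log2 change here, the change was 2.94 (SE 0.38, 95% interval 2.07 to 3.80), which is 7.66-fold on that scale, with an adjusted p of 0.040 by limma over all probe sets. In bulk samples like these, a change in how many cells hold a transcript and a change in its amount per cell cannot be told apart.

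**Figure D1:**
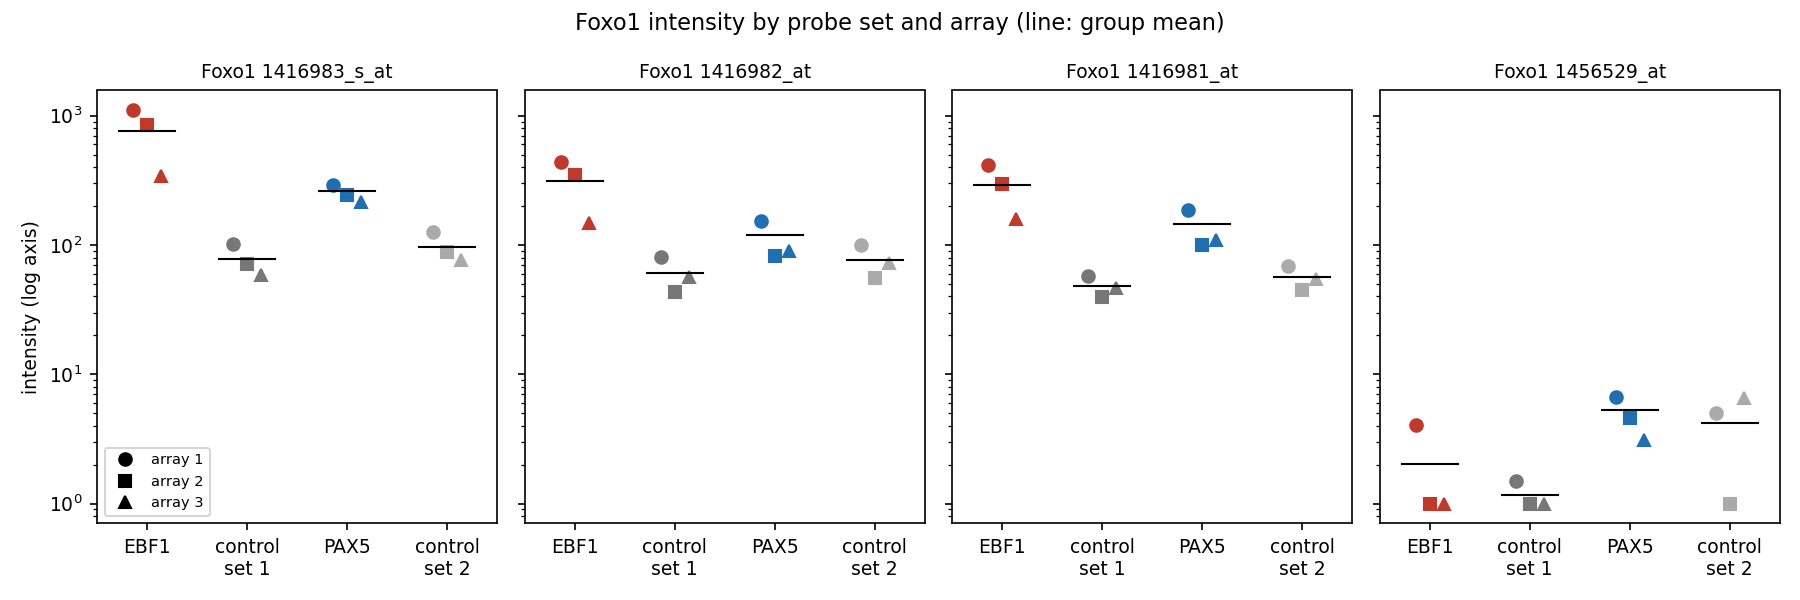
Intensity of the 4 Foxo1 probe sets on each array (linear values on a log axis), EBF1 left of set 1 controls and PAX5 left of set 2 controls, with points for arrays and lines for group means (in PAX5 cells, of array 1 and the mean of arrays 2 and 3). In 1416983_s_at, 1416982_at and 1416981_at every EBF1 array lies above every set 1 control, while 1456529_at stays between 1 and 6.72 throughout.

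The neighbouring probe sets were also high in EBF1 cells, at a smaller size. The probe set 1416981_at read 418, 296 and 160 in EBF1 arrays, against 58.0, 39.3 and 46.3 in set 1 controls, without overlap. Its log2 change was 2.18 (SE 0.33) and missed the threshold, with limma adjusted p = 0.072. The probe set 1416982_at read 437, 347 and 149 in EBF1 arrays, against 81.0, 43.4 and 56.3 in set 1 controls, again without overlap. Its log2 change of 2.01 (SE 0.37) also missed the threshold (limma adjusted p = 0.13). The remaining probe set, 1456529_at, read 4.05, 1 and 1 in EBF1 arrays, against 1.50, 1 and 1 in set 1 controls. It lies near the lower end of the scale on every array, so it shows no direction for Foxo1 in either group. Over the 8 counted samples the log2 values of the 3 bright probe sets followed each other, with Pearson's r of 0.970 to 0.986, and with 1456529_at r was 0.41 to 0.53. These are descriptions over samples that share arrays, and probe sets of a gene are not replicates.

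The EBF1 call rests on few samples. It was kept without EBF1 array 3 (log2 change 3.42, limma adjusted p = 0.0005), where 1416981_at (2.54, adjusted p = 0.0036) and 1416982_at (2.44, adjusted p = 0.0058) also passed. It was lost without EBF1 sample 1 (adjusted p = 0.072) or 2 (0.16), without any control sample (0.17 to 0.20), and without either PAX5 sample (0.12), while the log2 change stayed between 2.60 and 3.42. Of all probe sets, 0.0977% were called in EBF1 against control cells (44 of 45037, 42 higher and 2 lower), against 1 of the 19 member probe sets, Foxo1 1416983_s_at. At an unadjusted p under 0.05 there were 6 of the 19 members, and 9.97% of all probe sets. With control and EBF1 samples of equal number taken as pairs, 67 probe sets were called, all higher, and Foxo1 was called again (limma adjusted p = 0.013). Without EBF1 array 3 the count over all probe sets was 597 and over members 3, and without any 1 control sample it was 19 and 0.

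In PAX5 cells Foxo1 was higher by a smaller amount that did not pass the test. The probe set 1416983_s_at read 292, 244 and 214 in PAX5 arrays, against 126, 87.9 and 76.5 in set 2 controls, with no overlap. The log2 change was 1.31 (SE 0.42, 95% interval 0.34 to 2.28), and the limma adjusted p was 0.39. In a fit of all 12 arrays with equal numbers as blocks, which counts PAX5 arrays 2 and 3 separately and the controls once in each set, the change was 1.25 and passed (limma adjusted p = 0.031). The probe set 1416981_at read 185, 99.2 and 110 in PAX5 arrays, against 68.9, 44.9 and 55.0 in set 2 controls, a log2 change of 1.12 (limma adjusted p = 0.39). Its groups do not overlap either. For 1416982_at the PAX5 arrays read 153, 82.2 and 90.0, against 101, 55.4 and 72.5 in set 2 controls, and here the groups overlap (log2 change 0.54, limma adjusted p = 0.82). Of all probe sets 0.515% were called in PAX5 against control cells (232 of 45037, 209 higher and 23 lower), and 0 of the 19 members were called by limma, with 2 at an unadjusted p under 0.05, as were 8.51% of all probe sets. In the all-array fit with blocks, 1 member was called.

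The difference between the EBF1 and the PAX5 change of Foxo1 was tested in the same fit. For 1416983_s_at it was 1.63 in log2 (SE 0.42, 95% interval 0.66 to 2.59), with limma adjusted p = 0.13, so the larger change in EBF1 cells did not pass on these samples. With control and EBF1 samples of equal number paired, the same difference of 1.63 passed (limma adjusted p = 0.042), and without EBF1 array 3 it was 2.11 (adjusted p = 0.0062). For 1416982_at the difference was 1.47 (adjusted p = 0.16), and without EBF1 array 3 it was 1.90 and passed (adjusted p = 0.021). For 1416981_at it was 1.06 (adjusted p = 0.23). Of all probe sets 1.05% were called for this difference (473 of 45037), against 0 of the 19 members by limma, where 3 had an unadjusted p under 0.05, as did 14.7% of all probe sets. All 3 are Foxo1 probe sets.

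Levels of other cell types were set beside Foxo1. The summed intensity of 10 B-lineage markers, among them Cd79a, Cd79b and Vpreb1 of the pre-B-cell receptor, was 37783, 28645 and 18932 in EBF1 arrays 1, 2 and 3, against 1468 to 2118 in set 1 controls. EBF1 array 3 was thus lowest in this sum and in Foxo1 and highest in stromal markers. In PAX5 arrays the B-lineage sum was 12079 to 14155, against 2228 to 2900 in set 2 controls, and the stromal sum was 1390 to 2522, against 1330 to 3236 in set 2 controls. By limma 7 of the 10 B-lineage genes were called in EBF1 cells and 3 in PAX5 cells, against 0.148% and 0.693% of all genes. Their median log2 change was 3.44 in EBF1 cells. In PAX5 cells it was 0.36, with changes from -0.17 to 5.84, so the PAX5 sum does not stand for every marker. Of the 19 stromal genes 0 were called by limma in either comparison, with 1 at an unadjusted p under 0.05 in each. Over all genes 0.148% and 0.693% were called, and 11.3% and 9.06% had an unadjusted p under 0.05. The median log2 change of the 19 was 1.03 in EBF1 cells, against 0.015 over all genes, and 0.07 in PAX5 cells, against -0.008. Cxcl12, a stromal chemokine, read 143, 134 and 3366 in EBF1 arrays, against 128, 21.3 and 129 in set 1 controls. The stromal sum of EBF1 array 1 also lay above every set 1 control, and that of EBF1 array 2 lay within their range. The part of stromal RNA in the Foxo1 values was not tested.

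**Figure D2:**
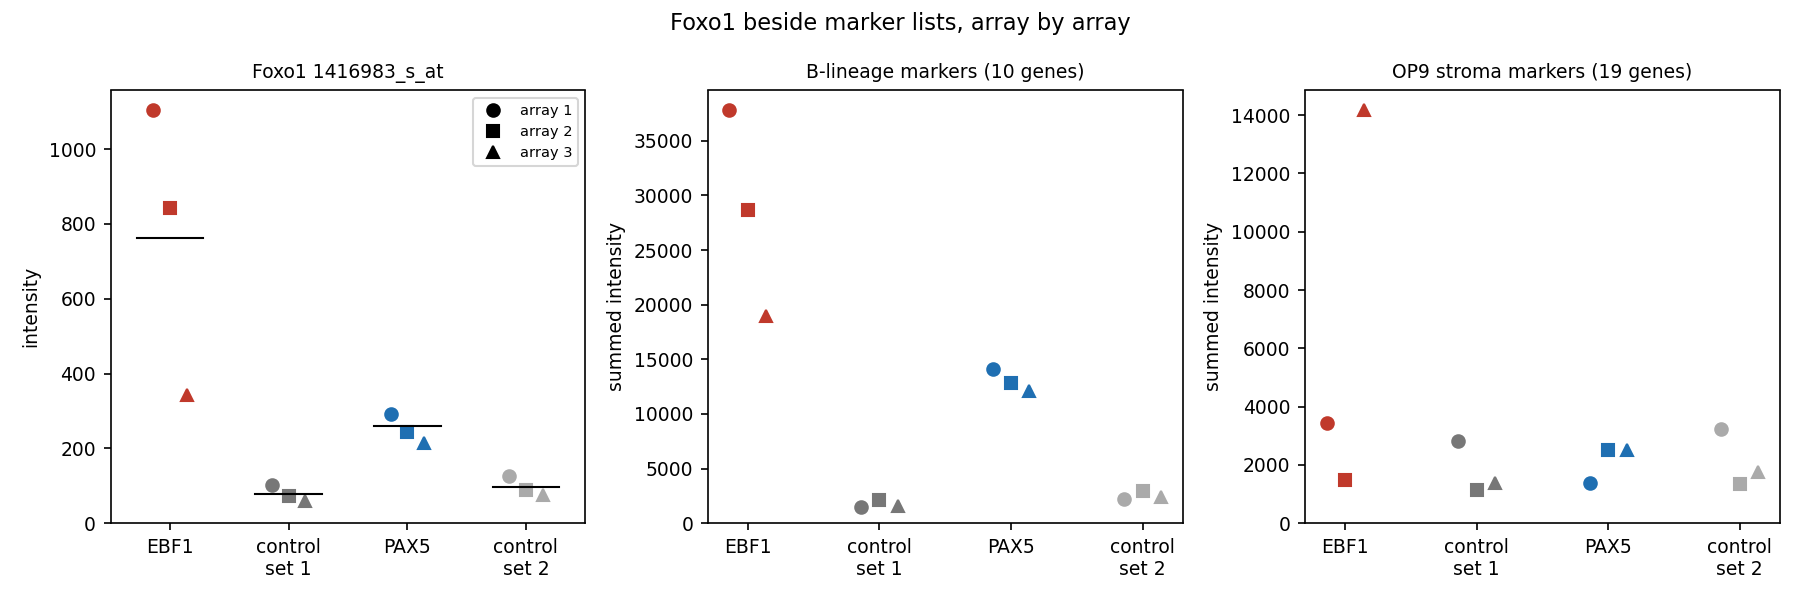
Foxo1 probe set 1416983_s_at (intensity) beside the summed intensity of 10 B-lineage and 19 OP9 stroma genes on each array, on linear axes from 0, EBF1 left of set 1 controls and PAX5 left of set 2 controls. EBF1 array 3 has the lowest Foxo1 value (343) and the lowest B-lineage sum (18932) of the EBF1 arrays, and the highest stromal sum (14194) of all arrays.

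The 5 genes whose log2 values were most like those of 1416983_s_at over the 8 counted samples were taken from 935 genes with a group mean of at least 100 and an SD of at least 0.5. They were Fam53b (Pearson's r 0.974), Cecr2 (0.973), Lgmn, a lysosomal protease (0.972), Cd79b, a signalling chain of the B-cell receptor (0.972), and Mzb1, a chaperone of antibody-producing cells (0.969). The coefficients rest on 8 samples that share arrays and control values and are descriptions. The genes were picked on these same samples for likeness to Foxo1, which was high in EBF1 cells. High values in EBF1 cells were thus part of the choice, and the p-values of these genes are descriptions too. Cd79b read 2223, 1527 and 523 in EBF1 arrays, against 9.56, 11.7 and 6.69 in set 1 controls (log2 change 5.61, limma adjusted p = 0.0018). In PAX5 arrays it read 85.0, 92.2 and 83.3, against 23.3, 21.0 and 16.7 in set 2 controls (log2 change 1.50, adjusted p = 0.38). Cecr2, a chromatin remodelling subunit, was the other of the 5 to pass in EBF1 cells, at 619, 586 and 209, against 55.7, 49.1 and 59.2 in set 1 controls (log2 change 2.65, limma adjusted p = 0.043). That call held in 9 of 18 alternatives and was lost without EBF1 sample 1 or 2, any control or either PAX5 sample (adjusted p 0.10 to 0.25).

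Foxo3, which encodes the FOXO factor known for keeping blood stem cells quiescent, was lower in EBF1 cells by its 2 bright probe sets, but did not pass the test. The probe set 1434831_a_at read 874, 873 and 852 in EBF1 arrays, against 1272, 973 and 1090 in set 1 controls. The groups do not overlap, and the EBF1 values were close together. The means were 866 ± 12.4 in EBF1 cells and 1111 ± 151 in control cells (SD, n = 3 each), a log2 change of -0.35 with limma adjusted p = 0.45. The second, 1434832_at, read 780, 740 and 775 in EBF1 arrays, against 1051, 861 and 934 in set 1 controls (log2 change -0.30, adjusted p = 0.57), also without overlap. In PAX5 arrays 1434831_a_at read 1091, 944 and 890, against 1317, 983 and 1151 in set 2 controls, where the groups overlap (log2 change -0.19, adjusted p = 0.83). For 1434832_at the PAX5 arrays read 1109, 785 and 783, against 1163, 912 and 1092 in set 2 controls (log2 change -0.17). The remaining probe set, 1450236_at, was dim, at 21.1 to 29.4 in EBF1 arrays, against 15.5 to 21.6 in set 1 controls. Its log2 change of 0.25 had the opposite sign to the bright probe sets and did not pass. The probe set shared with Gm38485 read 73.9 to 83.7 in EBF1 arrays, against 74.7 to 95.6 in set 1 controls (log2 change -0.08), and did not pass in PAX5 cells (-0.04).

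Foxo4, a FOXO gene also controlled by AKT, had 1 bright and 1 dim probe set. The bright 1456753_at read 174, 184 and 208 in EBF1 arrays, against 222, 191 and 248 in set 1 controls, with overlap. Its log2 change was -0.20 in EBF1 cells and -0.06 in PAX5 cells, where the arrays read 254, 227 and 192, against 242, 205 and 284 in set 2 controls. Neither passed the test. The dim 1422149_at read 4.16, 4.24 and 24.3 in EBF1 arrays, against 7.44, 9.26 and 17.3 in set 1 controls. Its 3 EBF1 values lie so far apart that it shows no direction (log2 change -0.09).

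Foxp1 was bright in all groups, and each of its 8 probe sets was lower on average in EBF1 cells and in PAX5 cells, yet none passed the test in either. The log2 changes ran from -0.52 to -0.25 in EBF1 cells (limma adjusted p 0.25 to 0.74) and from -0.45 to -0.14 in PAX5 cells (0.73 to 0.93). Probe sets of a gene read the same RNA on the same arrays, so their common sign is not 8 observations. The brightest, 1435222_at, read 2385, 2354 and 2402 in EBF1 arrays, against 3290, 2880 and 3566 in set 1 controls. The 3 EBF1 values lie within a narrow range below all controls, with means of 2381 ± 24.1 in EBF1 cells and 3245 ± 346 in control cells (SD, n = 3 each). Its log2 change was -0.44 (SE 0.12, 95% interval -0.71 to -0.17), with limma adjusted p = 0.25. The same probe set read 2855, 2643 and 2732 in PAX5 arrays, against 3268, 2873 and 3533 in set 2 controls (log2 change -0.21, adjusted p = 0.75), again without overlap.

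**Figure D3:**
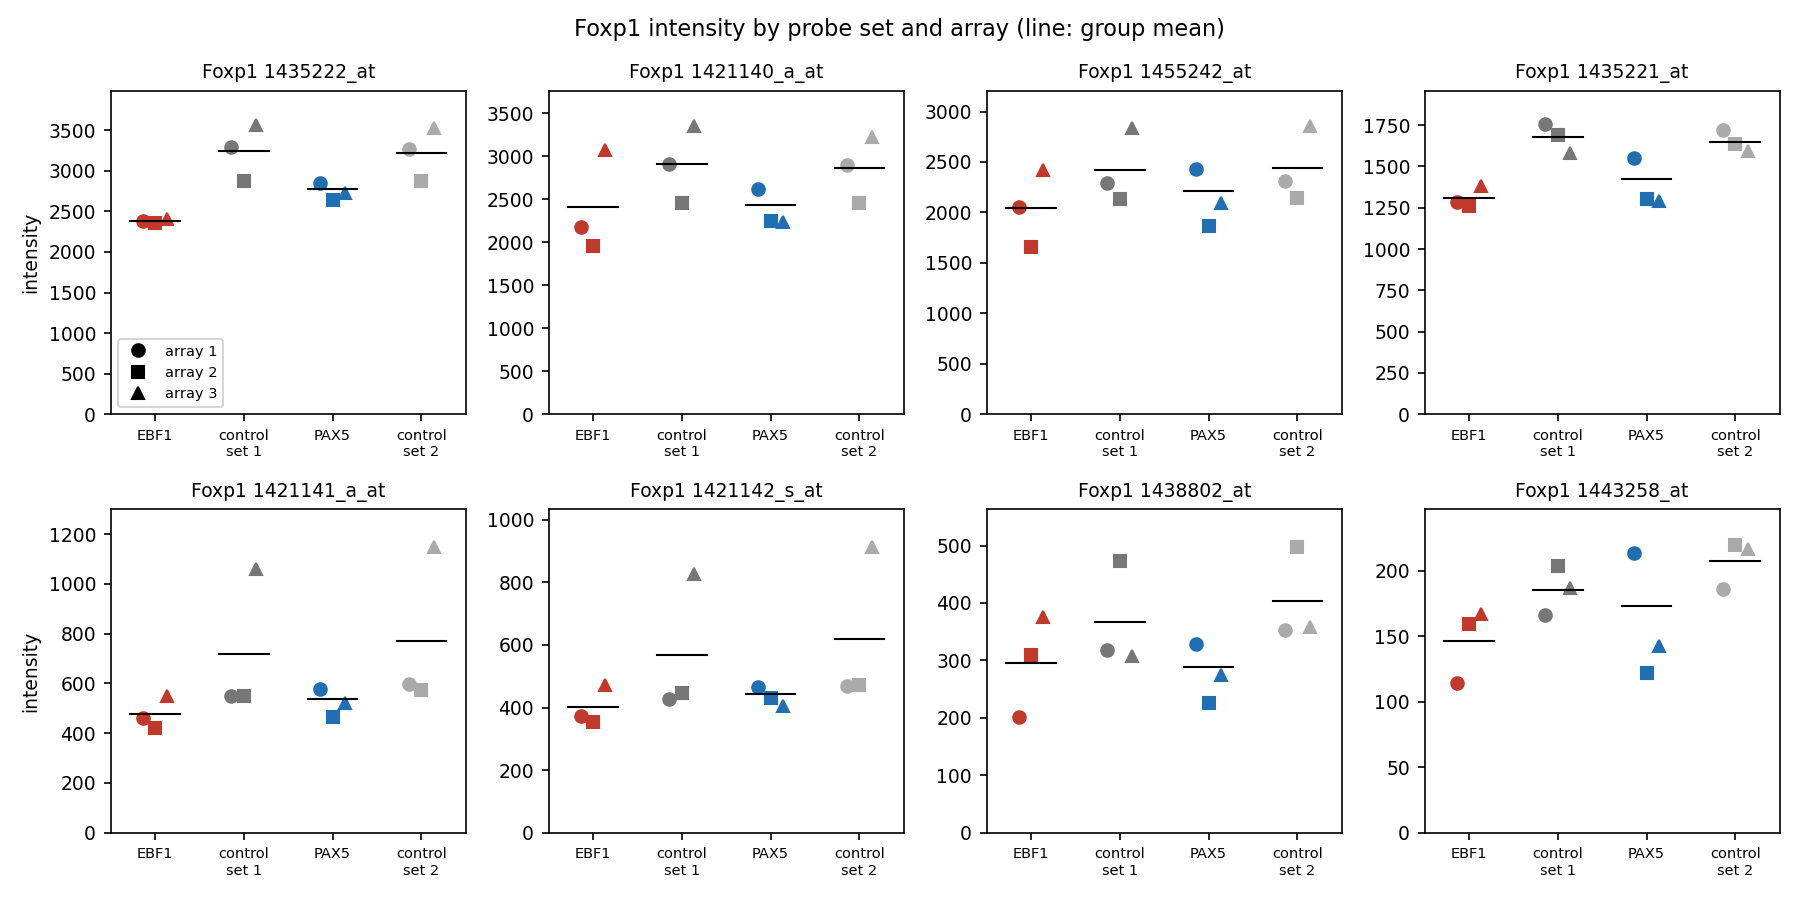
Intensity of the 8 Foxp1 probe sets on each array (linear axes from 0), EBF1 left of set 1 controls and PAX5 left of set 2 controls, with lines for group means. In 1435222_at the EBF1 arrays lie at 2354 to 2402, below set 1 controls at 2880 to 3566, and in 1421141_a_at and 1421142_s_at control 3 lies far above the other controls.

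The other Foxp1 probe sets gave the following values. The probe set 1435221_at read 1286, 1262 and 1379 in EBF1 arrays, against 1757, 1690 and 1582 in set 1 controls (log2 change -0.35, limma adjusted p = 0.37), without overlap. In 1421140_a_at EBF1 array 3 read 3076, above 2 of the 3 set 1 controls, which read 2910, 2460 and 3354. In 1421141_a_at the EBF1 arrays read 459, 419 and 549, against 549, 550 and 1060 in set 1 controls, and 1421142_s_at had 373, 354 and 473 in EBF1 arrays, against 429, 447 and 827 in set 1 controls. Control 3 stood apart in both of these, and not in 1435221_at. In 1455242_at the EBF1 arrays read 2058, 1656 and 2423, against 2294, 2137 and 2836 in set 1 controls. In 1438802_at they read 201, 309 and 375, against 319, 473 and 307. In 1443258_at they read 114, 159 and 167, against 166, 204 and 187, with overlap in each. In PAX5 arrays 1438802_at read 328, 225 and 275, against 353, 497 and 357 in set 2 controls, without overlap (log2 change -0.45). Averaged over the 8 probe sets, the log2 change of Foxp1 was -0.36 in EBF1 cells (limma adjusted p = 0.39) and -0.30 in PAX5 cells (adjusted p = 0.64). The intervals of the EBF1 minus PAX5 difference include 0 in every Foxp1 probe set, from -0.23 to 0.14 as point values.

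Foxp3 and Foxj1 were dim. Foxp3 read 36.9, 48.6 and 27.1 in EBF1 arrays, against 29.5, 25.1 and 34.0 in set 1 controls (log2 change 0.22, limma adjusted p = 0.74), with overlap. In PAX5 arrays it read 55.9, 45.3 and 42.9, against 32.2, 29.8 and 37.8 in set 2 controls, without overlap, and the log2 change was 0.42 (95% interval -0.01 to 0.85, adjusted p = 0.60). These levels are below the median of each array, which lay at 55.1 to 68.9, so the log2 change is shrunk by the added 16. Foxj1 read 11.2, 19.6 and 20.7 in EBF1 arrays, against 12.8, 11.6 and 20.9 in set 1 controls. In PAX5 arrays Foxj1 read 21.2, 27.3 and 22.6, against 16.6, 14.9 and 25.7 in set 2 controls. Its log2 changes of 0.09 in EBF1 cells and 0.16 in PAX5 cells did not pass, and the groups overlap in both.

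Over the 19 probe sets, the median log2 change was -0.25 in EBF1 cells, against 0.015 over all probe sets, and -0.17 in PAX5 cells, against -0.011 over all. The EBF1 median falls among Foxp1 probe sets, which make up 8 of the 19. All EBF1 arrays lay above all set 1 controls in 3 members, the bright Foxo1 probe sets, and below them in 4, the bright Foxo3 pair with Foxp1 1435222_at and 1435221_at. Over all probe sets the shares were 7.06% above and 6.14% below. In PAX5 cells 3 members lay above (Foxo1 1416983_s_at and 1416981_at, and Foxp3) and 4 below (Foxp1 1435222_at, 1435221_at, 1421142_s_at and 1438802_at), where all probe sets gave 8.14% and 8.77%.

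**Figure D4:**
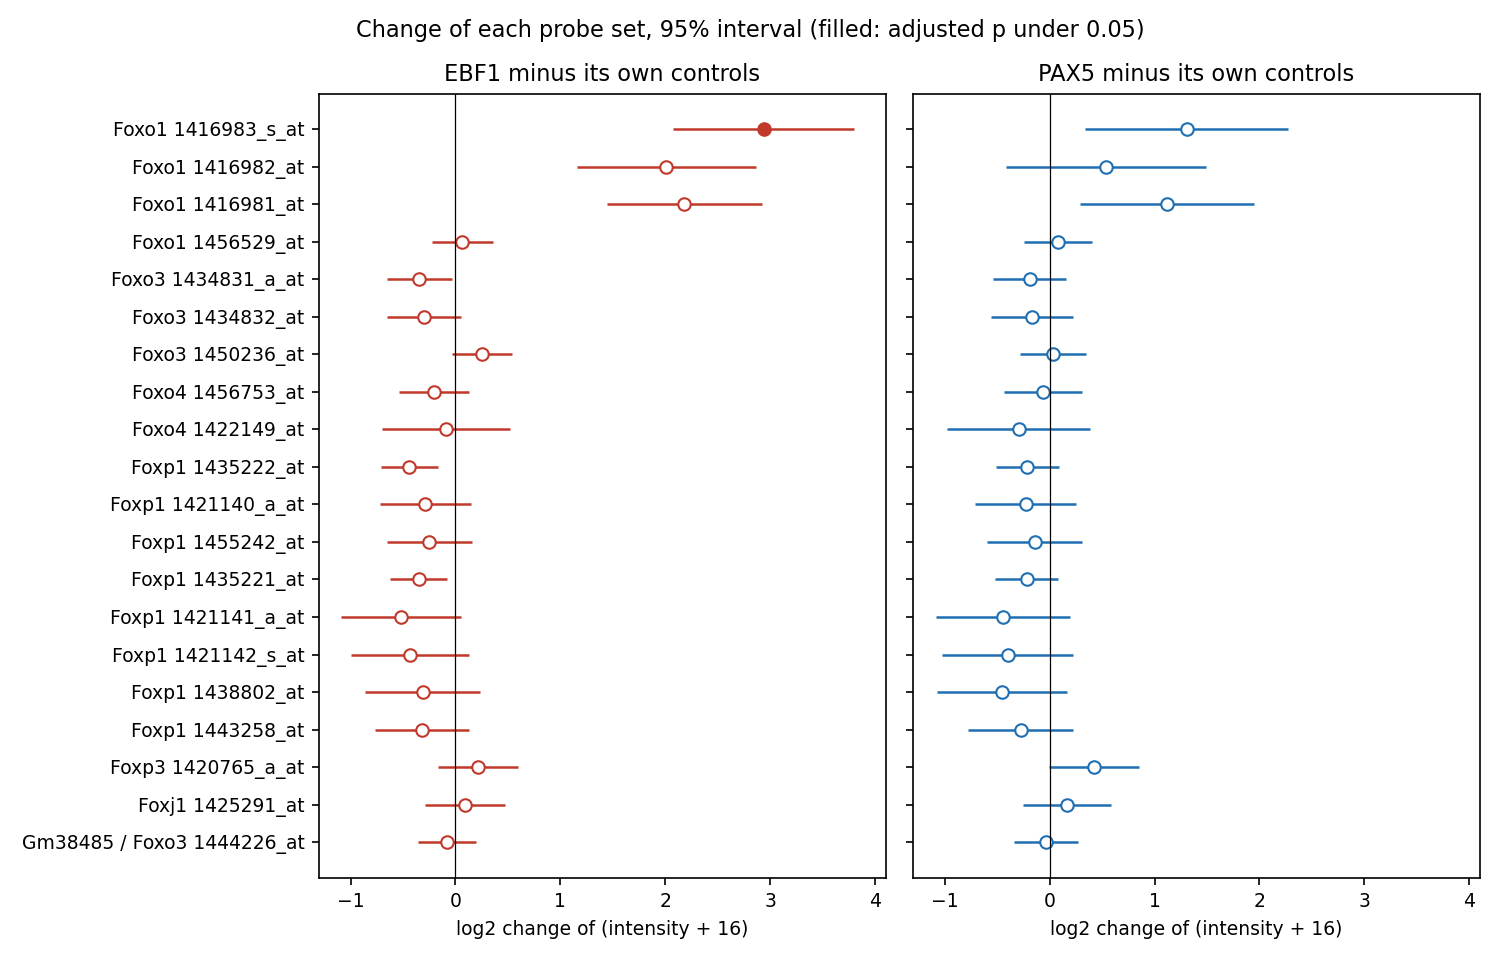
Log2 change (intensity plus 16) with its 95% interval for the 20 probe sets, EBF1 minus set 1 controls on the left and PAX5 minus set 2 controls on the right, with filled points for a limma adjusted p under 0.05. Foxo1 1416983_s_at in EBF1 cells (2.94) is the filled point, and all 8 Foxp1 points lie below 0 in both panels.

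Among the other forkhead genes 31 were measured, and 10 of them had a group mean of at least 100. By the brightest probe set of each gene, 0 of the 31 were called by limma in EBF1 or in PAX5 cells, with 3 and 1 at an unadjusted p under 0.05, where 0.148% and 0.693% of the 18193 genes were called and 11.3% and 9.06% had an unadjusted p under 0.05. Foxp4, a close relative of Foxp1, was called for the EBF1 minus PAX5 difference, where 1.42% of genes were called and 16.5% had an unadjusted p under 0.05. Its brightest probe set read 286, 219 and 231 in EBF1 arrays, against 110, 132 and 130 in set 1 controls (log2 change 0.90, limma adjusted p = 0.093). It read 122, 135 and 159 in PAX5 arrays, against 124, 143 and 153 in set 2 controls (log2 change -0.06). The difference was 0.96 (SE 0.16, limma adjusted p = 0.034), and it was lost without any 1 sample other than EBF1 sample 3 and with paired samples (adjusted p = 0.056). The median log2 change of the 31 genes was 0.04 in EBF1 cells, against 0.015 over all genes.

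Of the genes known as FOXO targets in lymphocytes 13 were measured. In EBF1 cells 0 of them were called by limma, against 0.148% of all genes, with 6 at an unadjusted p under 0.05, against 11.3% of all genes, and a median log2 change of -0.05, against 0.015. In PAX5 cells 2 were called, both higher, against 0.693% of all genes, with 8 at an unadjusted p under 0.05, against 9.06%, and a median of 1.31, against -0.008. S1pr1, the receptor by which lymphocytes leave tissues, read 367, 289 and 313 in PAX5 arrays, against 148, 99.1 and 131 in set 2 controls (log2 change 1.31, limma adjusted p = 0.015). The call was lost without either PAX5 sample (adjusted p 0.059 and 0.24), without control 3 (0.073) and with paired samples (0.052). Blnk, the adaptor of pre-B-cell receptor signalling and a B-lineage marker too, read 4877, 3639 and 3351 in PAX5 arrays, against 116, 29.8 and 47.0 in set 2 controls (log2 change 5.84, adjusted p = 0.0067). It was lost without either PAX5 sample (0.053 and 0.14) or control 3 (0.052). In EBF1 cells Blnk read 1195, 943 and 233, against 104, 26.8 and 39.5 in set 1 controls (log2 change 3.33, adjusted p = 0.12, and 0.0034 without EBF1 array 3). The EBF1 minus PAX5 difference of Blnk, -2.51, did not pass (limma adjusted p = 0.13), nor did it in any of the 18 alternatives.

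The recombinase genes did not pass against controls. Rag1 read 3435, 2954 and 1368 in EBF1 arrays, against 552, 118 and 623 in set 1 controls, without overlap (log2 change 2.73, limma adjusted p = 0.16). In PAX5 arrays Rag1 read 187, 221 and 213, against 620, 129 and 714 in set 2 controls, with control 2 below the PAX5 arrays (adjusted p = 0.80). The EBF1 minus PAX5 difference of Rag1 was 3.63 (limma adjusted p = 0.042), a call lost with paired samples (0.050), with both other added constants, and without EBF1 sample 1 or 2, either PAX5 sample, or control 1 or 3. Rag2 read 1218, 628 and 633 in EBF1 arrays, against 820, 137 and 799 in set 1 controls, and Il7r, the interleukin-7 receptor, read 2028, 1841 and 1823, against 3111, 737 and 2362. Both overlap in EBF1 cells. In PAX5 arrays Rag2 read 1384, 1246 and 1159, against 862, 146 and 832 in set 2 controls, without overlap, and Il7r read 947, 899 and 884, against 3109, 756 and 2416, with overlap. Neither passed in any comparison, except that without control 2 Il7r passed in PAX5 cells (log2 change -1.56, limma adjusted p = 0.015) and for the difference (1.05, adjusted p = 0.035).

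Other genes of this list were called for the difference between the factors, all lower in EBF1 relative to PAX5 cells. Klf2, a quiescence factor, read 122, 237 and 93.6 in EBF1 arrays, against 185, 209 and 172 in set 1 controls, and 1613, 1238 and 1206 in PAX5 arrays, against 568, 602 and 385 in set 2 controls. Its control levels differ between the sets, so its levels cannot be compared across them. Its difference was -1.82 (limma adjusted p = 0.042), kept in 9 of 18 alternatives. The part of the set in this difference was not tested. Ccr7, a chemokine receptor for lymph node entry, read 30.4, 80.4 and 83.8 in EBF1 arrays, against 186, 292 and 117 in set 1 controls, and 1109, 693 and 667 in PAX5 arrays, against 209, 311 and 136 in set 2 controls. Its difference was -3.39 (adjusted p = 0.0085, and 0.16 without PAX5 sample 1). The differences of S1pr1 (-1.97, adjusted p = 0.0013) and of the kinase gene Syk (-1.18, adjusted p = 0.012, and 0.14 without PAX5 sample 1) also passed. The count over the list was 1 higher (Rag1) and 4 lower of 13, against 1.42% of all genes called. An unadjusted p under 0.05 was found for 9 of the 13, against 16.5% of all genes. The list median was -1.18, against 0.022 over all genes.

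**Figure D5:**
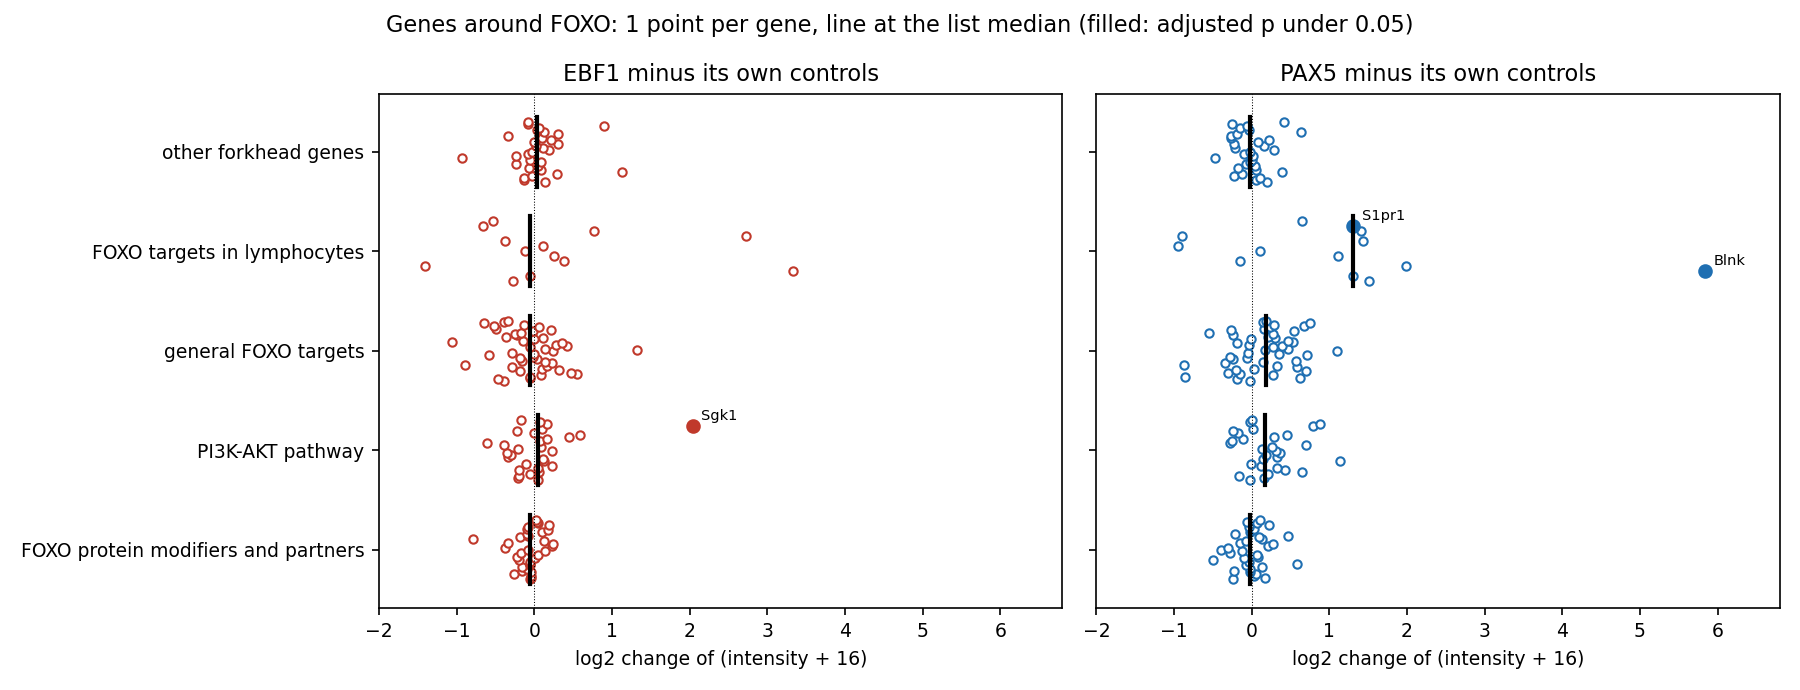
Log2 change per gene (brightest probe set, intensity plus 16) in 5 gene lists, EBF1 minus set 1 controls on the left and PAX5 minus set 2 controls on the right, with a line for each list's median and filled points for a limma adjusted p under 0.05. Sgk1 is filled in EBF1 cells and S1pr1 and Blnk in PAX5 cells, and the lymphocyte targets of FOXO have medians of -0.05 in EBF1 cells and 1.31 in PAX5 cells.

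Of 46 general FOXO targets, in the cell cycle, oxidative stress, autophagy and metabolism, 0 were called by limma in EBF1 cells and 0 in PAX5 cells, with 9 and 11 at an unadjusted p under 0.05, against 11.3% and 9.06% of all genes. The medians were -0.05 in EBF1 cells and 0.18 in PAX5 cells. Cdkn1b, the cell-cycle inhibitor p27, differed by 0.09 and 0.03, and Bcl2l11, the death factor BIM, by -0.05 and 0.62 in EBF1 and PAX5 cells. Ccng2 differed by -0.19 and 0.70, Sesn1 by -0.25 and 0.27, Sesn3 by -0.02 and 0.55, and Irs2, an adaptor of insulin signalling, by 0.24 and 1.10. The difference between the factors was called for 2 of the 46, both lower in EBF1 relative to PAX5 cells, and 19 had an unadjusted p under 0.05, against 1.42% and 16.5% of all genes. Txnip, a redox and glucose-uptake regulator, read 1669, 1383 and 1463 in EBF1 arrays, against 3307, 1781 and 2218 in set 1 controls, and 4784, 3437 and 3289 in PAX5 arrays, against 3300, 1790 and 2270 in set 2 controls, a difference of -1.40 (adjusted p = 0.048). Cdkn2d, another cell-cycle inhibitor, gave -0.87 (adjusted p = 0.047), and both calls were lost without any 1 EBF1 sample.

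Of the genes that act upstream of FOXO proteins, in the PI3-kinase and AKT pathway, 30 were measured and 1 was called in EBF1 cells. Of all genes 0.148% were called there, and 4 of the 30 had an unadjusted p under 0.05, against 11.3% of all genes. Sgk1, an AKT-related kinase that can phosphorylate FOXO proteins, read 309, 234 and 223 in EBF1 arrays, against 36.1, 42.8 and 74.3 in set 1 controls, without overlap. Its log2 change was 2.04 (SE 0.21, limma adjusted p = 0.014). The call was lost without control 1 (adjusted p = 0.086) or 2 (0.097), EBF1 sample 2 (0.063) or either PAX5 sample (0.059). In PAX5 arrays Sgk1 read 110, 129 and 109, against 45.0, 50.8 and 88.8 in set 2 controls (log2 change 0.79, adjusted p = 0.34). The difference was 1.25 (limma adjusted p = 0.054), and it passed in 5 of 18 alternatives. In PAX5 cells 0 of the 30 were called by limma, with 6 at an unadjusted p under 0.05, against 0.693% and 9.06% of all genes. For the difference 0 were called, with 10 at an unadjusted p under 0.05, against 1.42% and 16.5% of all genes.

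The PI3-kinase subunits and AKT showed no call. Pik3cd, the catalytic subunit of lymphocytes, differed by 0.08 in EBF1 and 0.26 in PAX5 cells, the regulatory Pik3r1 by -0.61 and -0.28, and Akt1 by 0.05 and -0.02. The lipid phosphatase gene Inpp5d differed by -0.20 and 0.43, and the B-cell adaptor Pik3ap1 by -0.35 and 0.36. Pik3ip1, an inhibitor of PI3-kinase that is also a FOXO target, read 875, 828 and 896 in EBF1 arrays, against 3034, 1201 and 1647 in set 1 controls, without overlap (log2 change -1.06, limma adjusted p = 0.30). In PAX5 cells its log2 change ran from 0.19 to 0.90 over the 18 alternatives, with 0 calls. Its EBF1 minus PAX5 difference ran from -1.94 to -1.25 over them, with 1 call. Of 35 genes for 14-3-3 proteins, kinases, deacetylases and other modifiers of FOXO proteins, 0 were called by limma in EBF1 cells, in PAX5 cells or for the difference, with 2, 3 and 3 at an unadjusted p under 0.05. Over all genes 0.148%, 0.693% and 1.42% were called, and 11.3%, 9.06% and 16.5% had an unadjusted p under 0.05.

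For the FOXP1 partners and targets 10 genes were measured. In EBF1 cells 0 were called by limma, against 0.148% of all genes, with 2 at an unadjusted p under 0.05, against 11.3%. In PAX5 cells 2 had an unadjusted p under 0.05, against 9.06% of all genes, and 1 was called, against 0.693%. This was Cd74, the invariant chain of MHC class II, at 6527, 5328 and 5268 in PAX5 arrays, against 433, 350 and 412 in set 2 controls (log2 change 3.84, adjusted p = 0.0010). In EBF1 arrays it read 474, 914 and 1027, against 1177, 909 and 807 in set 1 controls (log2 change -0.31). Its control levels differ between the sets, and its difference of -4.15 was called (limma adjusted p = 0.00056). Here too the part of the set in the difference was not tested. Rag1, described above, is also in this list.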

How the data were processed

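Total RNA was hybridised to 12 arrays, and the deposited table gives a linear intensity for each probe set and array. The authors' probe summary and normalization are not given in the sources used here. Array medians lay at 55.1 to 60.6 (set 1) and 65.3 to 68.9 (set 2). On each array 2.5% to 3.05% of probe sets read exactly 1, and the lowest value was 0.57 to 0.98. The platform annotation names 1 gene for 34945 of 45037 probe sets, several for 932 and none for 9160. Entrez IDs linked 34741 of those with 1 gene to the RefSeq table of GRCm38.p6.

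Log2(intensity + 16) was fitted with limma 3.58.1 in R 4.3.3 (lmFit, eBayes), every probe set tested, Benjamini-Hochberg adjusted over all, threshold 0.05. In the fit each hybridisation counted once: the offset between control sets was removed, equal-numbered controls and PAX5 arrays 2 and 3 were averaged, leaving 3 control, 3 EBF1 and 2 PAX5 samples with 5 residual and 3.68 prior degrees of freedom. Lists used each gene's brightest probe set. The procedure was tested on simulated data. The 18 alternatives cover constants, a filter on dim probe sets, quantile normalization, counting of arrays, blocks, the variance prior, gene summaries and samples left out.

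Deviations of EBF1 and set 1 control arrays of equal number correlated at 0.345, 0.608 and 0.391, so these numbers were taken to pair the samples. The reported p-values nevertheless come from the unpaired fit, and paired values are given where they change a call. Those of PAX5 and set 2 controls correlated at 0.411, 0.194 and 0.333, but only 2 PAX5 samples were counted.

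The members, lists and tests were chosen with earlier results of these data known. Named were all member probe sets, Ebf1, Pax5, a fixed set of FOXO targets and pathway genes, up to 6 called genes per list and comparison, and the 5 genes most like Foxo1. Other genes were named after their values were seen.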

Additional observations from a re-analysis of the deposited data

How the results depend on the processing

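Of 933 values of the member probe sets under the alternatives, 912 stayed on their side of the threshold, 10 lost the call, 11 gained it and 0 called values changed sign, while 35 values that never passed changed sign. Foxo1 1416983_s_at stayed called in EBF1 cells in 8 of 18 alternatives. Its log2 change was 3.12 (limma adjusted p = 0.067) with 4 added, 2.43 (0.18) with 64 added and 1.80 (0.058) for the mean of the gene's probe sets, and 0 members were called in each of these. With paired control and EBF1 samples, 67 probe sets were called in EBF1 cells, and the difference of 1.63 for Foxo1 passed, as 1 member. Pathway genes below are the genes of all lists other than the members, Ebf1 and Pax5, and the cell type markers. They include the other forkhead genes and the FOXP1, FOXP3 and FOXJ1 lists, not only the PI3-kinase and AKT pathway. With all 12 arrays counted separately, the calls were 295 in EBF1 cells, 638 in PAX5 cells and 208 for the difference, with 3 members in EBF1 cells and 4, 10 and 5 pathway genes, against 44, 232 and 473 calls and 1, 4 and 10 pathway genes as reported. With blocks in that fit they were 220, 642 and 246, with 3 members in EBF1 cells and 1 in PAX5 cells (Foxo1, 1.25) and 5, 9 and 5 pathway genes. A trended, robust prior gave 90 calls in EBF1 cells and 745 for the difference, with 2 members and 17 pathway genes. A filter at 100 gave 16 pathway genes for the difference. With 4 added there were 287 calls and 5 pathway genes for the difference and 153 calls in PAX5 cells, also 153 for gene means, and with 64 added 14 calls in EBF1 cells. Leaving out 1 sample at a time, calls ran from 19 to 597 in EBF1 cells, 50 to 263 in PAX5 cells and 78 to 874 for the difference. Pathway genes ran from 0 to 8, 2 to 5 and 2 to 12, and members from 0 to 3 in EBF1 cells and 0 to 2 for the difference. Foxo1 1416983_s_at ran from 2.60 to 3.42 in EBF1 cells, 1.14 to 1.49 in PAX5 cells and 1.29 to 2.11 for the difference. A group left with 1 sample was assumed to vary like the others, and the cause of lost calls was not tested. Signal limits Foxp3, Foxj1, Foxo1 1456529_at and the dim Foxo3 and Foxo4 probe sets.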

Other observations

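Genes tied to the dim members Foxp3 and Foxj1 were read in the same way. Of 17 regulatory T cell genes of the FOXP3 program, 0 were called by limma in EBF1 cells, against 0.148% of all genes. There 4 had an unadjusted p under 0.05, against 11.3% of all genes. In PAX5 cells 3 had an unadjusted p under 0.05, against 9.06% of all genes, and 1 was called, against 0.693%. This was Nrp1, a co-receptor found on many cell types besides regulatory T cells, at 2517, 1505 and 1481 in PAX5 arrays, against 130, 58.5 and 98.0 in set 2 controls (log2 change 4.18, limma adjusted p = 0.0018), and all 4 of its probe sets passed. In EBF1 arrays Nrp1 read 165, 84.4 and 152, against 118, 53.5 and 91.3 in set 1 controls (log2 change 0.54), and the difference of -3.65 passed (adjusted p = 0.0025). The median of the 17 was 0.14 in EBF1 cells and 0.13 in PAX5 cells. T-cell markers (13 genes) summed to 1331 to 2617 in EBF1 arrays, against 1781 to 2629 in set 1 controls, and to 1412 to 1674 in PAX5 arrays, against 1992 to 2737 in set 2 controls. By limma 0 of the 13 were called in either comparison, against 0.148% and 0.693% of all genes. An unadjusted p under 0.05 was found for 2 and 4, against 11.3% and 9.06% of all genes.

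Of 29 motile cilium genes of the FOXJ1 program, 0 were called by limma in EBF1 cells, in PAX5 cells or for the difference, with 6, 2 and 6 at an unadjusted p under 0.05. Over all genes 0.148%, 0.693% and 1.42% were called, and 11.3%, 9.06% and 16.5% had an unadjusted p under 0.05. Rsph9, a radial spoke gene named after its values were seen, read 841, 208 and 201 in EBF1 arrays, against 47.9, 59.8 and 36.2 in set 1 controls, without overlap (log2 change 2.46, limma adjusted p = 0.13). In PAX5 arrays it read 42.2, 50.3 and 42.9, against 60.0, 72.3 and 47.0 in set 2 controls (log2 change -0.32). Myeloid markers (14 genes) summed to 1893 to 3675 in EBF1 arrays, against 4463 to 6647 in set 1 controls. In PAX5 arrays they summed to 4840 to 6248, against 5171 to 7223 in set 2 controls. Their median log2 change was -0.01 in EBF1 cells (-1.73 to 0.30), so the sum does not stand for every marker, and -0.03 in PAX5 cells. By limma 0 of the 14 were called in either comparison, with 6 and 2 at an unadjusted p under 0.05. For the difference 1 was called, lower in EBF1 relative to PAX5 cells, with 4 at an unadjusted p under 0.05. The shares over all genes are those given above. The part of these markers in the forkhead values was not tested.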
